A study of Mus musculus with 12 samples.

Results

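Zonation markers are hepatocyte genes whose transcripts lie mostly at one end of the liver lobule, near the central vein (pericentral) or near the portal vein (periportal). The markers described here were taken by name from a list of 10 genes, 6 pericentral (Glul, Oat, Slc1a2, Rgn, Tbx3, Lect2) and 4 periportal (Gls2, Hal, Sds, Cdh1), by a rule that uses gene names alone; the list itself was drawn up with earlier results of these data known. In the platform annotation used, 8 of the 10 genes, of 12393 genes in all, were named on 10 of the 22626 tested probe sets, that is, all 6 pericentral genes on 8 probe sets and Hal and Cdh1 on 1 each. Gls2 and Sds were not analysed here, so the periportal side rests on 2 genes.

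Whole-liver RNA of 12 mice, all males aged 6 weeks, was measured on 1-colour Affymetrix arrays. Their hepatocytes carried human alpha1-antitrypsin under inducible control, the wild-type form in M mice and the mutant ATZ form in Z mice. The off groups (M1 and Z1 in the titles) drank doxycycline at 40 µg/mL from conception and did not express the transgene. The on groups (M4 and Z4) received no doxycycline and expressed it. Each of the 4 groups held 3 arrays, named biological replicates in the titles. All Z mice belong to another transgenic line than the M mice, and all on mice lacked the drug, so form and line, and expression and the absence of doxycycline, cannot be told apart. The labels limit the transgene to hepatocytes and name no promoter.

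The lobule divides its work by position, because blood enters at the portal vein and leaves at the central vein. Wnt ligands made by endothelial cells of the central vein keep beta-catenin active in the nearest hepatocytes, which then make glutamine from ammonia. Periportal hepatocytes break down amino acids and make urea and glucose. In whole-liver RNA, fewer cells of a zone and less RNA per cell cannot be told apart, and the position of a transcript within the lobule was not measured.

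As a check of the tissue, 9 of 10 hepatocyte markers had a probe set, none of them fell below 16 signal units on all arrays, and their summed signal was 104200 to 167600 over the arrays. The arrays were scaled to a trimmed mean of 150.07 to 150.08, with medians from 38.8 to 47.2. The Z off arrays stood apart from the others. A principal component analysis of the 11313 brighter probe sets put them at 1 end of its first axis (18.2% of the variance), at 21.5 to 27.8. On that axis Z on lay at -5.90 to 12.4, M off at -12.7 to -6.61 and M on at -21.6 to -16.3. The groups did not overlap there, and M on held the opposite end. The beta-actin 3′ to 5′ ratio, a sign of RNA length, was also low in Z off, at 2.18 to 2.53. It was 2.44 to 5.16 in Z on, 2.72 to 3.89 in M off and 3.09 to 4.38 in M on. The 18S ribosomal RNA control read 93.9 to 373 with Z off, below the 914.2 to 1491.7 of Z on and the 568.2 to 709.8 of M off, and 226.6 to 767.5 with M on. These values move with every comparison that uses Z off, and their part in it was not tested. Only M on against M off and Z on against M on do without the Z off arrays, and both use M on, the opposite end of the first axis. The 18S control was also apart between Z on and M on (914.2 to 1491.7 against 226.6 to 767.5), and its part there was not tested.

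In short, 0 of the 10 probe sets passed the test in any of the 7 comparisons made (limma, an adjusted p under 0.05 over all 22626 probe sets), where 0% to 0.0884% of all probe sets did. When the mutant form was expressed, all 6 pericentral genes read higher by their leading probe set and both periportal genes read lower. The median log2 difference was 0.33 for the pericentral genes (range 0.18 to 0.71) and -0.32 for the periportal genes (range -0.37 to -0.27). Of these values, those of Tbx3, Lect2 and Cdh1 lay within 1 SE of 0. In M mice 5 of 6 pericentral genes read higher, with a median of 0.21, and the periportal median was -0.079. Both periportal values and those of Glul, Slc1a2 and Tbx3 lay within 1 SE of 0 there. Over all tested probe sets the median was -0.033 in Z mice, where 47% read higher, and -0.0084 in M mice, where 48.9% did. In Z on against M on, which does without the Z off arrays, 4 pericentral genes read higher and 2 lower (median 0.044). There 1 periportal gene read higher and 1 lower (median 0.15). In Z on against Z off the second probe sets of Glul and Tbx3 read the other way. With each gene's probe sets averaged, 5 of 6 pericentral genes read higher there. In M on against M off Tbx3, counted as higher, read -0.11 with its probe sets averaged. In M mice the count of periportal genes reading lower, 2 over all arrays, was 1 without M off replicate 1 or any single M on replicate, and 0 with array weights. These are counts of the signs of leading probe sets, with values within 1 SE of 0 counted too. They are not calls, and they give no single gene a direction. Where a gene had several probe sets, the one with the highest mean leads and the other stands beside it.

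As a sum, stellate cell markers were separated between on and off in both lines. Their summed signal, over 9 of 9 measured, was 2339 to 2683 with Z off and 1519 to 1958 with Z on, and 2429 to 2644 with M off and 1601 to 2141 with M on, without overlap in either line. Of the 9, 8 read lower in Z mice (median -0.39) and 8 in M mice (median -0.30), none called in limma. The exceptions were Des in Z mice (0.27) and Lrat in M mice (1.22), and Lrat read below 16 on 11 arrays. At an unadjusted p under 0.05 there were 2 of the 9 in Z mice and 1 in M mice, against 6.29% and 5.18% of all probe sets. The part of the stellate markers in the zonation marker values was not tested. Summed sinusoidal endothelial markers were also apart in M mice, at 1274 to 1417 with M off and 1042 to 1219 with M on. In Z mice they overlapped. Summed Kupffer cell, lymphocyte, erythroid, skeletal muscle and pancreatic acinar markers overlapped between on and off in both lines. The skeletal muscle sums were spread widely in M off, at 105 to 712.2, against 104 to 117 in M on. In that comparison 3 of 9 muscle markers had an unadjusted p under 0.05 in limma, against 5.18% of all probe sets. Of the 9, 3 read higher and 6 lower (median -1.91), and none was called or above the median level of all tested probe sets. The part of the muscle markers in the zonation marker values was not tested.

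**Figure D1:**
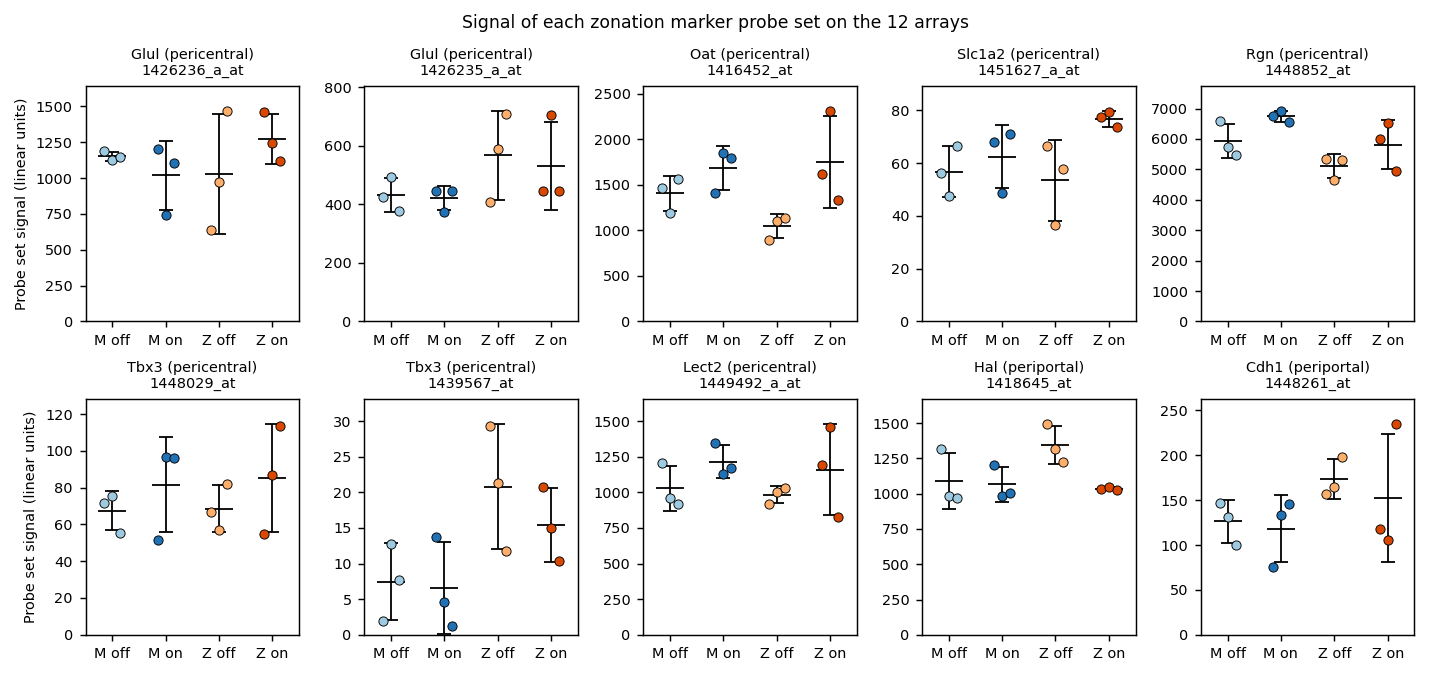
Linear probe set signal on each of the 12 arrays (points), with the group mean and SD (black bars, n = 3), for the 10 probe sets of the 8 measured genes. Oat and Slc1a2 read higher on every Z on than on every Z off array and Hal lower, while the groups of Glul, Tbx3 and Lect2 overlapped.

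Glul encodes glutamine synthetase, which in liver is restricted to a thin sheath of hepatocytes around the central vein and removes ammonia that escaped the urea cycle. Its leading probe set read 637.2, 973.9 and 1467.4 in Z off. Its Z on signals were 1459.3, 1244 and 1116.1. The M off arrays lay close together at 1188.3, 1125.1 and 1143.5, and the M on arrays read 1204.7, 742.3 and 1106.1. The Z off arrays thus held both the lowest and the highest of the 12 values, and every group overlapped its neighbours in the order Z on, M off, Z off, M on. The SD was 418 in Z off and 32.5 in M off (n = 3 each). Z on and Z off differed by 0.38 on the log2 scale (SE 0.30, limma adjusted p = 0.876), a ratio of 1.31 with a 95% interval from 0.816 to 2.09. Without Z off replicate 1 that difference was 0.082, and without Z off replicate 3 it was 0.68. In M mice the difference was -0.21 (SE 0.30, limma adjusted p = 1).

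The other Glul probe set did not follow the leading one between groups. Its Z off signals were 406.4, 588.8 and 706.8 and its Z on signals 445.9, 706 and 443.8. M off gave 423.4, 494.1 and 377.8, and M on 444.1, 374.4 and 445.4. On this probe set Z on was not above Z off (log2 difference -0.092, SE 0.26), and Z read above M when averaged over both states (0.34, SE 0.19, limma adjusted p = 0.63), where the leading one differed by 0.048. The probe sets give opposite signs for Z on against Z off and for Z off against M off (-0.25 and 0.37), so the sign counted for Glul in either comparison is that of its leading probe set only.

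Oat, ornithine aminotransferase, turns ornithine into a precursor of glutamate in the same perivenous cells. With Z off it read 896.4, 1108 and 1135.6, and with Z on 1618.7, 2310.1 and 1329.9. In M off it was 1461.6, 1193.1 and 1567.8, and in M on 1409.6, 1850.8 and 1790.5. All Z on arrays lay above all Z off arrays, and all Z off arrays also lay below all M off arrays, while M on, Z on and M off overlapped. The mean signal was 1750 ± 504 with Z on, 1680 ± 239 with M on, 1410 ± 193 with M off and 1050 ± 131 with Z off (SD, n = 3 each). The log2 difference of Z on and Z off was 0.71 (SE 0.24), a ratio of 1.64 with an interval from 1.13 to 2.37. It did not pass (limma adjusted p = 0.694), nor did the average over both lines (0.49, SE 0.17, limma adjusted p = 0.749). In M mice the difference was 0.26 (SE 0.24), and the responses of the lines differed by 0.46 (SE 0.34, limma adjusted p = 0.933).

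Slc1a2 encodes the glutamate transporter GLT-1, which brings glutamate into pericentral hepatocytes for glutamine synthesis. Its probe set read above 16 units on all 12 arrays. It read 77.5, 79.3 and 73.5 in Z on and 66.4, 36.5 and 57.7 in Z off. M off gave 56.3, 47.4 and 66.5, and M on 67.8, 48.7 and 70.9. The Z on arrays lay above every other array, and the 3 remaining groups overlapped each other. The log2 difference of Z on and Z off was 0.56 (SE 0.26, limma adjusted p = 0.798), 0.31 without Z off replicate 2, and 0.30 with 50 added to every signal before log2. Z on minus M on was 0.32 (SE 0.26, limma adjusted p = 0.872), and M on minus M off was 0.13.

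Rgn encodes regucalcin (SMP30), a calcium-binding lactonase of hepatocytes, and had the smallest spread of the 10 probe sets, with a pooled SD within groups of 0.136 on the log2 scale. Its Z off signals were 5353.1, 4667 and 5314.2 and its Z on signals 5988.8, 6517 and 4940.5. M off gave 6576.3, 5749.7 and 5485.3, and M on 6753.4, 6916.2 and 6564.3. Every Z off array lay below every M off array, and every Z on array below every M on array, while on and off overlapped within both lines. Averaged over both states, Z minus M was -0.22 (SE 0.12, limma adjusted p = 0.621), a ratio of 0.859 with an interval from 0.715 to 1.03. On minus off was 0.18 in Z mice and 0.19 in M mice (SE 0.17 each), and the difference between these responses was -0.0085 with an interval from -0.54 to 0.52.

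Lect2, a secreted hepatocyte protein and a target of beta-catenin, was arranged much like Rgn on single arrays. Its Z off signals were 917.3, 1004.6 and 1028.8 and its Z on signals 1190.6, 1460.4 and 825.5. M off gave 1207.4, 958.9 and 918.5, and M on 1346.7, 1127 and 1170.2. Z on replicates 2 and 3 were the highest and the lowest of all 12 arrays, so Z on spanned every other group. The differences were 0.20 in Z mice (SE 0.23, limma adjusted p = 0.92) and 0.25 in M mice (SE 0.23, limma adjusted p = 1). The Z value was 0.013 without Z on replicate 2 and 0.42 without Z on replicate 3.

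Tbx3 encodes a T-box transcription factor that acts downstream of beta-catenin in hepatocytes. Its leading probe set read 66.8, 56.7 and 81.9 with Z off, and 54.9, 87.1 and 113.4 with Z on. In M off it read 71.9, 75.2 and 55.2, and in M on 51.7, 96.6 and 96.1. All 4 groups overlapped, and in both on groups replicate 1 read well below the other arrays of its group. The differences were 0.27 in Z mice and 0.23 in M mice (SE 0.33 each), with intervals from -0.48 to 1.01 and from -0.52 to 0.97. The other Tbx3 probe set, the only one of the 10 below the median level of all tested probe sets, lay between 1.2 and 29.3 and below 16 on 9 of 12 arrays. Its mean was 20.8 ± 8.76 with Z off and 15.4 ± 5.21 with Z on, against 7.47 ± 5.35 in M off and 6.5 ± 6.46 in M on (SD, n = 3 each). Z minus M over both states was 1.78 on it (SE 0.63, limma adjusted p = 0.433) and 0.039 on the leading one. On minus off was -0.39 in Z mice and -0.46 in M mice on it (SE 0.89 each), opposite in sign to the leading probe set.

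Hal encodes histidase, the first enzyme of histidine breakdown, and is a classic periportal gene. Its Z off signals were 1492.6, 1318.4 and 1226.2 and its Z on signals 1036, 1045 and 1028.7. M off gave 1316.4, 986.8 and 966.8, and M on 1205.8, 985.4 and 1007.6. The Z on arrays were nearly equal (1040 ± 8.16, against 1350 ± 135 in Z off; SD, n = 3 each) and all lay below the Z off arrays. Z off stood above every Z on and M on array and overlapped M off. The log2 difference of Z on and Z off was -0.37 (SE 0.18, limma adjusted p = 0.799), a ratio of 0.773 with an interval from 0.584 to 1.02. In M mice it was -0.023 with an interval from -0.43 to 0.38, and the difference between the responses was -0.35 (SE 0.26, limma adjusted p = 0.933).

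Cdh1 encodes E-cadherin, the adhesion protein of epithelial junctions, which is periportal among hepatocytes and also present in bile duct cells. Its Z off signals were 157.1, 164.5 and 198.4 and its Z on signals 118.1, 105.3 and 234.5. M off gave 147, 131.6 and 100.5, and M on 75.4, 133.5 and 145.7. Z off lay above M off without overlap, and Z on replicate 3 was the highest of the 12 arrays. The difference of Z on and Z off was -0.27 (SE 0.35, limma adjusted p = 0.933) and changed to -0.63 without Z on replicate 3 and to -0.051 without Z on replicate 2. Z off minus M off was 0.47 (SE 0.35, limma adjusted p = 0.809). Of 12 bile duct markers, 9 had a probe set and none was above the median level. Cldn7 read below 16 on all 12 arrays and Epcam on 10 of 12, whereas Krt19 and Prom1 did so on 2 and Sox9 on 3, with highest signals of 48.1, 67.8 and 38.4. The summed bile duct signal was 104.2 to 135.9 in Z off, 115.1 to 177.9 in Z on, 125.8 to 360.3 in M off and 122.4 to 180.7 in M on, and its part in the Cdh1 values was not tested.

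**Figure D2:**
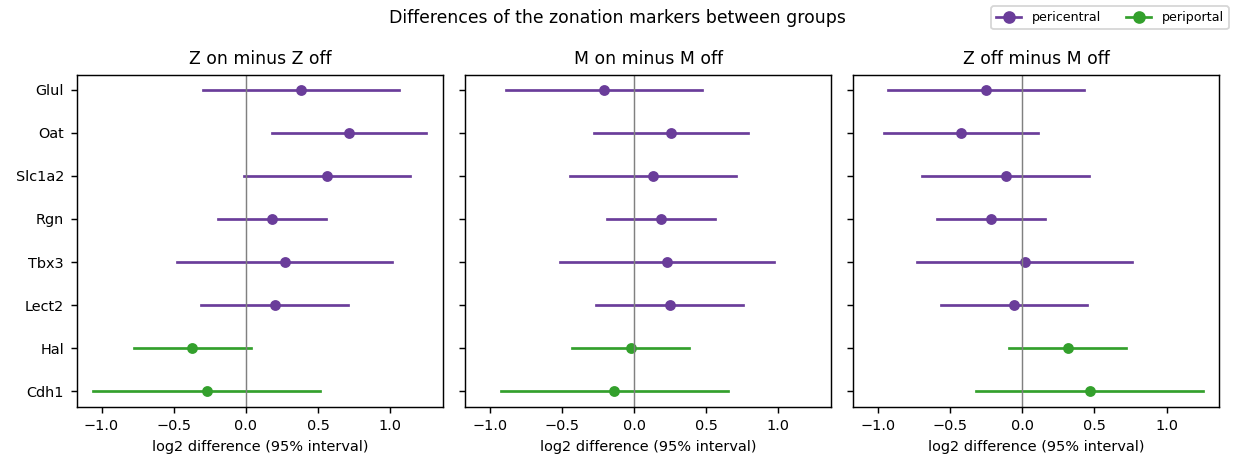
Log2 difference (points) with its 95% interval from limma (lines) for the leading probe set of each gene, for the on against off states of each line and for the off states of both lines. In the panel of Z mice the interval of Oat lies above 0, from 0.18 to 1.25 before any adjustment over probe sets, and the other 7 include 0.

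The counts of members stand here beside those of the whole array. In Z on against Z off, 3 of 10 member probe sets had groups that did not overlap, where 11.8% of all probe sets did. Oat and Slc1a2 were higher, as were 5.22% of all, and Hal was lower, as were 6.61%. An unadjusted p under 0.05 was reached by 1 of 10, against 6.29% of all, and an adjusted p under 0.05 by 0, against 0.0133%. In M on against M off no member had groups apart, where 10.5% of all did (5.23% higher, 5.32% lower), none had an unadjusted p under 0.05 (5.18%), and the adjusted threshold was passed by 0% of all. The interaction, which asks whether the response differs between the lines, gave 0 members under an unadjusted p of 0.05 (5.18% of all) and 0 called in limma, where 0% of all were called.

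Between lines, 2 of 10 member probe sets were apart in Z on against M on (12.1% of all; Slc1a2 higher, as 6.07% were, and Rgn lower, as 6.02% were) and 3 of 10 in Z off against M off (15.1% of all; Oat and Rgn lower, as 6.76% were, and Cdh1 higher, as 8.36% were). No member had an unadjusted p under 0.05 in either (6.85% and 7.73% of all), and calls in limma were 0 of 10 in both, against 0.00884% and 0.0707% of all. In Z off against M off the leading probe sets read lower for 5 of 6 pericentral genes (median -0.17; Glul, Slc1a2 and Lect2 within 1 SE of 0) and higher for both periportal genes (median 0.39). This comparison and that of Z on with Z off share the Z off arrays, so the opposite signs in them are not separate observations. Averaged over both lines, on minus off gave 1 of 10 at an unadjusted p under 0.05 (Oat; 5.84% of all) and 0 called in limma (0.00884% of all), and no member had all on arrays apart from all off arrays (0.318% of all, 0.168% higher and 0.15% lower). Averaged over states, Z minus M gave 1 of 10 (the dim Tbx3 probe set; 9.09% of all) and 0 called in limma (0.0884% of all), and no member had all Z arrays apart from all M arrays (0.924% of all, 0.38% higher and 0.544% lower).

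The precision bounds what these arrays could miss. For Z on minus Z off the intervals of the 8 leading probe sets reached from a ratio of 0.481 (Cdh1) at the lowest to 2.37 (Oat) at the highest, and for M on minus M off from 0.528 (Cdh1) to 1.96 (Tbx3). With 3 arrays a group, differences as large as these bounds remain possible, and a p above the threshold does not show that levels were equal.

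**Figure D3:**
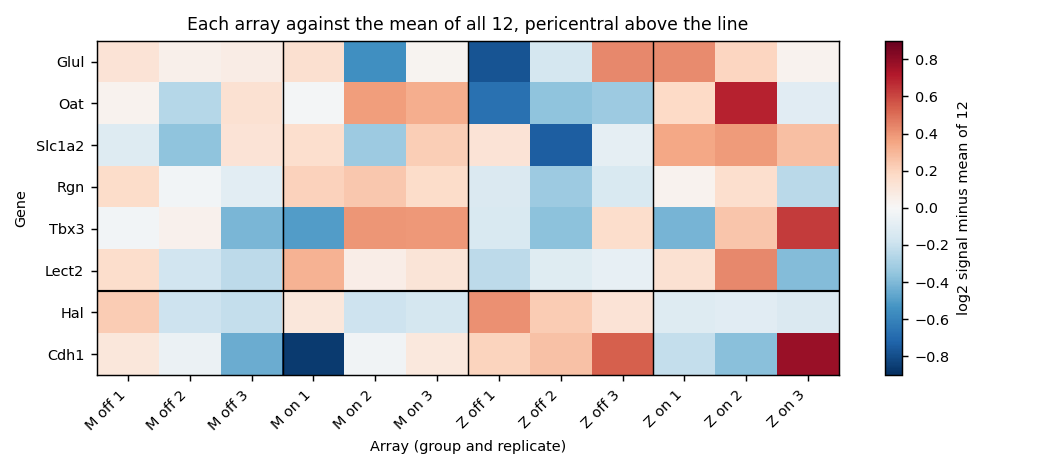
Log2 signal of each leading probe set on each array minus its mean over the 12 arrays (colour scale from -0.9 to 0.9). Z on replicate 2 holds the highest Oat, Slc1a2 and Lect2 values, and Z off replicates 1 and 2 and M on replicate 1 each hold 2 of the 8 lowest values.

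Across single arrays most pairs of pericentral genes had positive but uneven correlations. Over the 12 arrays the 15 pairs of pericentral genes had Pearson correlations from -0.14 to 0.774, with a median of 0.299 and 13 of them positive. The 12 pairs of a pericentral and a periportal gene lay between -0.669 (Oat and Hal) and 0.59 (Tbx3 and Cdh1), with a median of -0.294. Rgn, Lect2 and Oat were the closest pericentral genes, at 0.774 for Rgn and Lect2, 0.679 for Oat and Rgn, and 0.652 for Oat and Lect2. When each array was set against its own group mean, the median fell to 0.0827 for the pericentral pairs and was -0.18 for the mixed pairs. Rgn and Lect2 stayed close (0.813), and so did Tbx3 and Cdh1 (0.821). Oat and Rgn fell to 0.467, Oat and Lect2 to 0.576, and Oat and Hal moved to -0.254. Glul had at most 0.324 with another pericentral gene. These correlations describe 12 arrays that share groups and scaling and were given no test. Among 7033 genes above the median level, those most like Glul over the 12 arrays were Prkacb (0.879), Akr1c20 (0.875), Usp8 (0.847), Sypl (0.83) and Mmut (0.812), by Pearson correlation of log2 signals. These are the highest of 7033 values over 12 arrays and were not tested. The leading and the other Glul probe set correlated at 0.465 with each other.

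Other pericentral genes gave a less even picture than the members in the Z comparison. Of 25 listed, 20 had a probe set. In Z on against Z off 12 read higher and 8 lower, with a median of 0.14 and none called. In M on against M off 11 read higher and 9 lower, with a median of 0.036 and none called. At an unadjusted p under 0.05 there were 3 of the 20 in Z mice and 1 in M mice, against 6.29% and 5.18% of all probe sets. Cyp2e1, which oxidises ethanol, read 11500 ± 1920 with Z on against 10200 ± 38.2 with Z off, and 10900 ± 1530 with M on against 11500 ± 871 with M off (SD, n = 3 each). Cyp1a2 read 3420 ± 728, 2830 ± 579, 3030 ± 678 and 3380 ± 344 in the same order of groups. Neither was called.

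The smallest p-values of that list belonged to Cyp7a1, whose enzyme sets the pace of bile acid synthesis, and Avpr1a, a vasopressin receptor. Cyp7a1 read 2316.1, 1247.8 and 1078 in Z on and 843.2, 733.6 and 790.6 in Z off. In M on it read 1443.7, 1642.9 and 743.2, and in M off 252.8, 430.6 and 357.5. On lay above off without overlap in both lines, with log2 differences of 0.89 (SE 0.37, limma adjusted p = 0.77) and 1.83 (SE 0.37, limma adjusted p = 0.4). Avpr1a read lower in the on groups, by -0.80 in Z mice (SE 0.29, limma adjusted p = 0.71) and -0.58 in M mice (SE 0.29, limma adjusted p = 1). Lhpp, a phosphatase, differed by 0.74 in Z mice (SE 0.32, limma adjusted p = 0.787). Rnf43, which removes Wnt receptors and is itself a Wnt target, differed by 0.55 in Z mice and 0.51 in M mice (SE 0.28 each; limma adjusted p = 0.804 and 1).

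The Wnt path that maintains the pericentral programme was split in sign. Of 17 listed genes 15 were measured. In Z on against Z off 6 read higher and 9 lower (median -0.034). In M on against M off 7 read higher and 8 lower (median -0.077). None was called in either and none had an unadjusted p under 0.05, where 6.29% and 5.18% of all probe sets did. The ligand Wnt2 read 52.7 ± 12.6 with Z on, 41.8 ± 12 with Z off, 48.5 ± 2.97 with M on and 34.6 ± 2.40 with M off (SD, n = 3 each). Ctnnb1, which encodes beta-catenin, read 2090 ± 226, 2540 ± 492, 2160 ± 368 and 2570 ± 357 in the same order of groups. Axin2, a feedback target of the pathway counted with the pericentral genes, read 39.2 ± 15.7 and 51.9 ± 18.8 in Z on and Z off, and 59.8 ± 11.1 and 46.0 ± 2.46 in M on and M off. Of 8 markers of central vein endothelial cells, a source of these ligands, 7 were measured, with a summed signal of 149 to 190.6 in Z on, 151.8 to 220.8 in Z off, 171.8 to 182.7 in M on and 127.7 to 207.9 in M off. This sum includes Wnt2 and Wnt9b, so it is not separate from the ligand values. Only 1 of the 7, Wnt2 itself, was above the median level. The 10 markers of sinusoidal endothelial cells summed to 1398 to 1761, 1322 to 1638, 1042 to 1219 and 1274 to 1417 in the same order of groups. M on lay below every other group without overlap. Of the 10 markers, 4 read higher and 6 lower in Z on against Z off. All 10 read lower in M on against M off, and none was called in either. The part of either cell type in the Wnt values was not tested.

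Genes that neighbour Glul, Oat and Slc1a2 in glutamine and glutamate handling were 11 of 13 measured. In Z on against Z off 9 read higher and 2 lower, with a median of 0.27, and in M on against M off 4 read higher and 7 lower, with a median of -0.059. None was called or had an unadjusted p under 0.05 in these comparisons (6.29% and 5.18% of all probe sets had). In Z mice Glud1, Got1, Slc38a5, Asns and Arg2, counted as higher, and both lower genes lay within 1 SE of 0. In M mice all but Prodh did. Of the 11, 7 were above the median level, and the Z comparison uses the Z off arrays. Prodh, which feeds proline carbon towards glutamate, differed by 0.37 in Z mice (SE 0.21, limma adjusted p = 0.838), and Slc38a3, the glutamine transporter of hepatocytes, by 0.38 (SE 0.22, limma adjusted p = 0.851). Of 8 genes of histidine and serine breakdown, the paths of Hal and Sds, 5 were measured. They differed by -0.20 to 0.18 in Z mice and by -0.26 to 0.22 in M mice, with none called.

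**Figure D4:**
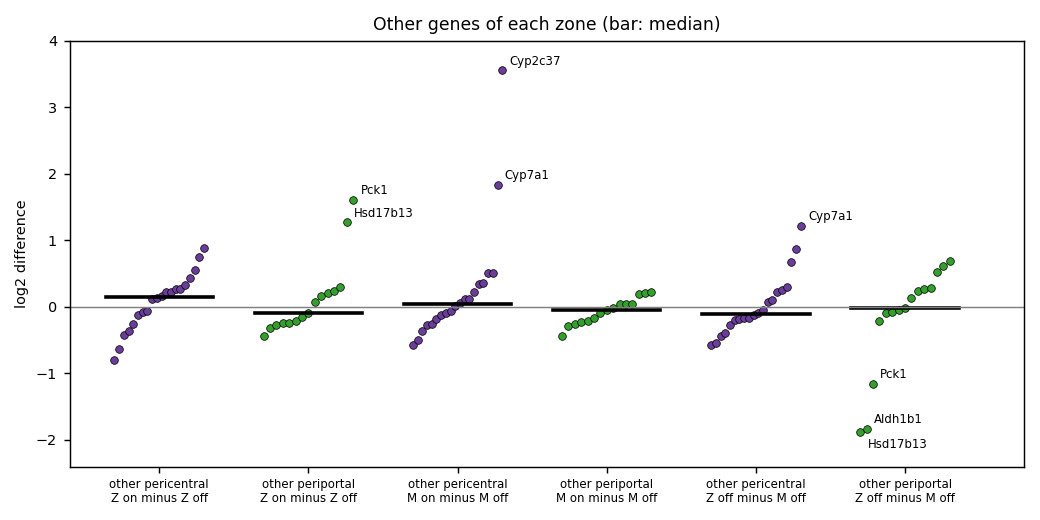
Log2 differences of the other pericentral (20) and other periportal (15) genes by leading probe set, one point a gene, with the median as a bar; genes beyond 1 in either direction are named. The medians lie between -0.11 and 0.14 in the 6 columns.

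Other periportal genes, 15 measured of 19 listed, gave 7 higher and 8 lower in Z on against Z off (median -0.097). In M on against M off they gave 6 higher and 9 lower (median -0.042), and none was called in either. An unadjusted p under 0.05 was reached by 2 in Z mice and 0 in M mice, against 6.29% and 5.18% of all probe sets. Pck1, which controls glucose output, had the smallest p in Z mice. Its Z off signals were 3203.1, 1241.7 and 949.7 and its Z on signals 5449.1, 4464.6 and 4446.6 (log2 difference 1.61, SE 0.38, limma adjusted p = 0.533), opposite in sign to Hal and Cdh1. Gldc, of the glycine cleavage system, differed by -0.44 (SE 0.19, limma adjusted p = 0.791). The abundant periportal cytochrome Cyp2f2 differed by -0.24 in Z mice and -0.29 in M mice (SE 0.22 each), and Cps1, the entry enzyme of the urea cycle, by -0.097 and -0.22 (SE 0.25 each).

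Of the other pericentral and other periportal genes, 1 was called in any of the 7 comparisons. Aldh1b1, a mitochondrial aldehyde dehydrogenase listed as periportal, was lower in the Z line in both states. It read 105.4, 86.8 and 61.5 with Z off, and 78.3, 95.2 and 106.6 with Z on. In M off it read 302.9, 244.7 and 341.9, and in M on 272.5, 341.9 and 294.9. All 6 Z arrays lay below all 6 M arrays, and within each line on and off overlapped. Z off minus M off was -1.83 (SE 0.24, limma adjusted p = 0.0359), Z minus M over both states was -1.77 (SE 0.17, limma adjusted p = 0.00508), and Z on minus M on was -1.70 (limma adjusted p = 0.0759). The call for Z off against M off did not survive leaving out any 1 of the 12 arrays (limma adjusted p = 0.0529 to 0.171), while that over both states passed in all 21 alternatives.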

How the data were processed

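Each array gave 1 intensity per probe set, and the deposited intensities were on a linear scale. The submitters' processing notes name RMA, but the values have equal trimmed means and unequal medians, which RMA output would not; no source used here names other software. A single 0 was set to 0.1 before log2. Of 22690 probe sets, 64 controls were left out. Of the rest, 20380 carried 1 gene symbol, 691 several and 1555 none, and those with 1 were named. Gene identifiers were looked up in RefSeq (GRCm38.p6, names only), which changed no symbol.

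Group means over all 12 arrays were estimated with limma 3.58.1 in R 4.3.3 (lmFit, eBayes, two-sided), 7 contrasts were taken, and p-values were adjusted by Benjamini-Hochberg over 22626 probe sets. Intervals are limma's, at 95%, for 1 comparison at a time. P-values measure the spread between arrays that the titles call biological replicates, and the number of arrays limits the precision. The fit was tested on simulated data, and the outcome is not given here. Members, lists and tests were chosen with earlier results of these data known. The text names all member probe sets, up to 4 genes of smallest p per further list and comparison, and the 5 genes most like Glul. Cyp2e1, Cyp1a2, Cyp2c37, Cyp2f2, Cps1, Wnt2, Ctnnb1, Axin2 and any other gene outside that rule were picked with their values known. Likeness to Gls2 was not analysed here. Alternatives covered scaling, the variance model, dim probe sets, added constants, the arrays fitted, a replicate block, array weights and probe set averaging.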

Additional observations from a re-analysis of the deposited data

How the results depend on the processing

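The alternatives were quantile scaling, median centring, a trended robust variance model, a filter on dim probe sets, 16 or 50 added to signals, fits of a comparison's own groups, a replicate block, array weights, averaged probe sets, and omission of each array. In all 151 counts of calls under these, 0 member probe sets passed in limma, the replicate block included (0 in each of the 7 comparisons), and the smallest adjusted p of a member difference was 0.323. Same-numbered arrays of different groups correlated at -0.0826 to 0.161 in their deviations from group means, above 0.1 in 3 of 18 pairs. Differently numbered arrays correlated at -0.183 to 0.157, above 0.1 in 3 of 36 pairs. Whether same-numbered arrays share more than a number cannot be told from these values. Of 1208 member differences, 59 changed sign. Of these, 58 had a reported value within 1 SE of 0; such values enter the counts by sign, and they were not taken as reversals. The remaining one was Tbx3 for on minus off over both lines, 0.25 by its leading probe set and -0.089 with its probe sets averaged. Sign counts and Aldh1b1 were put through the alternatives after the data were seen. The 2 periportal genes that read lower with M on became 0 with array weights and 1 to 2 under omission of an array; the cause was not tested. For Aldh1b1 in Z off against M off, the replicate block (limma adjusted p = 0.188) and the fit of only those groups (0.301) also lost the call. Low signal limits the second Tbx3 probe set; 28.4% of all values lay below 16.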

Other observations

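Cyp2c37, a pericentral cytochrome, read at 2 separate levels that did not follow the groups. It read 829.4 and 868.7 on M on replicates 1 and 3 and 772.3 on Z off replicate 2, and between 10.7 and 49.9 on the other 9 arrays. The difference in M mice (3.56, SE 1.63, limma adjusted p = 0.974) therefore rests on 2 of the 3 M on arrays, and the Z off mean on 1 array. The gene has near-identical neighbours in its family, so which copy the probe set measured is uncertain.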
